A study of Homo sapiens with 6 samples.

Results

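The genes described are 9 that carry folate into the cell, hold it there and run the one-carbon reactions that depend on it, namely SLC19A1, FPGS, GGH, TYMS, MTHFD1, MTHFD2, SHMT1, SHMT2 and MTR. They were taken by name, with every probe set annotated to 1 of these symbols and to no other gene, which gave 15 of the 22277 probe sets on the arrays. The samples were 6 oligonucleotide arrays of PC3, a human prostate cancer line grown from a bone metastasis. On 3 arrays, labelled PSMA, the cells were said to overexpress human PSMA (prostate-specific membrane antigen, encoded by FOLH1) from the plasmid pLNCX-PSMA. On the other 3, labelled control, the cells were called wild type in the titles and vector only in the source label, so which of the names fits them is not settled by the labels. All cells were grown in RPMI, and the protocol has both kinds go through FUGENE 6 transfection and puromycin selection. The labels do not say whether the selected cells were a pool or 1 clone, or whether the 3 arrays of a group came from separate cultures, so the p-values cover the variation among the deposited arrays, which could be purely technical.

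Folate enters cells through carriers and receptors and is held there by a tail of glutamate residues, which FPGS adds and GGH removes. Reduced folates then carry single carbons, taken mainly from serine by the 2 serine hydroxymethyltransferases, into thymidylate, purines and the methyl group of methionine. The cycle runs in the cytosol and, with its own set of enzymes, in mitochondria. PSMA also acts on folate outside the cell, where it cuts glutamates off the tail, and the question put to the arrays was which transcripts differ between cells with and without it.

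Signal for FOLH1 itself went against the labels. On its brightest probe set (217487_x_at), which is annotated to FOLH1 and to its near-identical paralog FOLH1B, intensity was 15.1, 8.58 and 13.7 on the arrays labelled PSMA, against 477.4, 417.3 and 547.7 on those labelled control. On the probe set of FOLH1 alone (217483_at) intensity was 24.4, 32.0 and 28.0 on the arrays labelled PSMA, against 61.5, 59.7 and 60.4 on those labelled control (log2 difference -1.11). All 4 probe sets that include FOLH1 were lower on the arrays labelled PSMA. Each passed the filter on dim values, described below, through the arrays labelled control alone, so no p is given. Directions below follow the labels as deposited: "higher" and "lower" refer to the arrays labelled PSMA, on which FOLH1 signal was lower.

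The PC3 keratin and adhesion genes KRT8, KRT18 and EPCAM were detected in both groups and all 3 were called lower (log2 differences -0.35 for EPCAM, -0.40 for KRT18 and -0.31 for KRT8), summing to 9682 to 9880 on arrays labelled PSMA and 12435 to 12842 on arrays labelled control. The mesenchymal filament gene VIM was called higher (0.30), at 4109 to 4264 on arrays labelled PSMA and 3347 to 3559 on arrays labelled control. KLK3, which PC3 lacks, stayed below the filter described next. Leucocyte markers were below it on all 5 of their probe sets, 3 of them for the pan-leucocyte antigen PTPRC, with sums of 55.3 to 59.1 on arrays labelled PSMA and 51.5 to 56.5 on arrays labelled control. Of 15 probe sets for fibroblast and endothelial markers 3 passed it, and their 15 values summed to 436.6 to 454.3 on arrays labelled PSMA and 319.5 to 343.6 on arrays labelled control, with COL1A1 on its most changed probe set (202310_s_at) at 103 ± 11.3 and 22.9 ± 2.02 (SD, n = 3 each). Without that probe set the sums were 329.6 to 350.4 on arrays labelled PSMA and 296.9 to 322.5 on arrays labelled control, and another COL1A1 probe set (217430_x_at) read 90.5 ± 4.19 and 83.1 ± 7.44 and was not called. The array's own 28S rRNA control, in its middle part, gave 675 ± 4.29 on arrays labelled PSMA and 1498 ± 63.1 on arrays labelled control. Its 5′ part gave 4047 ± 358 and 5778 ± 681, and its 3′ part 20.4 ± 0.994 and 19.3 ± 1.23, in the same order. The ratio of 3′ to 5′ signal was 1.36 ± 0.0872 on arrays labelled PSMA and 1.30 ± 0.0668 on arrays labelled control for GAPDH, and 4.44 ± 0.757 and 4.61 ± 0.658 for ACTB (SD, n = 3 each). The part of these shifts in the results below was not tested. Values are GCRMA intensities in arbitrary units, for which no depth exists, and 3 arrays a group limit the precision.

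Of the 15 probe sets of the 9 genes, 11 were bright enough to test, meaning that 3 arrays or more exceeded 52.5, the median over the whole table. These 11 covered 8 genes, and SHMT1 was the gene with none. A probe set was called when its limma p, adjusted by the Benjamini-Hochberg method over all 11303 probe sets tested, was under 0.05. By that rule 6 of the 11 were called, 4 higher and 2 lower on arrays labelled PSMA, beside 60.6% of all probe sets tested. The groups did not overlap on 7 of the 11, beside 67.3% of all probe sets. The share of the genes' probe sets that differed is therefore near the share across the array, and what follows concerns which of them moved and by how much. Their median log2 difference was 0.083, against -0.019 over all probe sets tested. The differences on the 11 probe sets ran from -0.22 for the folate carrier to 1.32 for MTHFD1, the only one of the 11 past 2-fold, as 4.12% of all tested probe sets were. Against a minimum fold of 1.5 (limma's treat), 1 of the 11 was called, MTHFD1, and 747 of all 11303.

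**Figure D1:**
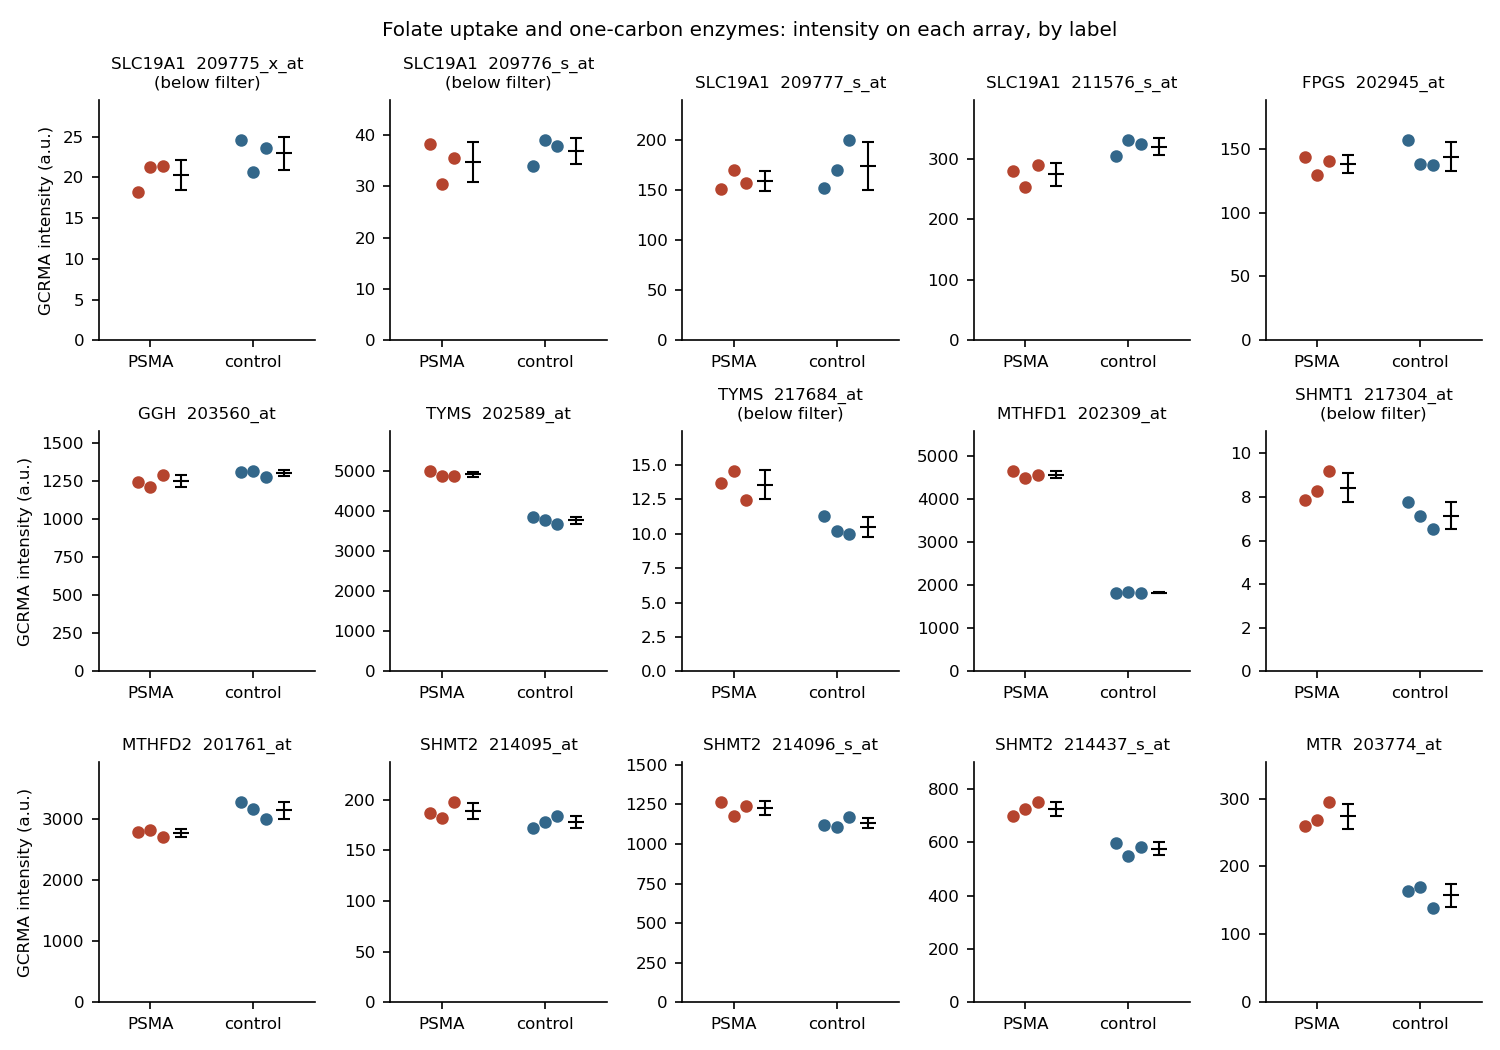
GCRMA intensity (arbitrary units, linear axes from 0, a scale of its own for each panel) of the 15 probe sets of the 9 genes on each array, with arrays labelled PSMA in red and arrays labelled control in blue. Points are arrays and the bar beside them is the mean with its SD (n = 3). MTHFD1, TYMS on its bright probe set and MTR sit apart between the groups, while FPGS and GGH overlap.

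MTHFD1 had the largest difference among the 11 tested probe sets. A probe set that SHMT1 shares with another gene, given below, differed more (log2 difference -1.43). MTHFD1 encodes the cytosolic enzyme with 3 activities that interconverts the formyl, methenyl and methylene forms of tetrahydrofolate and so feeds purine and thymidylate synthesis. Its probe set (202309_at) read 4650.3, 4495 and 4558 on arrays labelled PSMA, against 1826, 1835 and 1816 on arrays labelled control. The 3 values of each group lay close together and the groups were far apart, a 2.50-fold difference (log2 difference 1.32, SE 0.041, 95% interval 1.23 to 1.42, limma adjusted p = 1.1e-07). In RNA of bulk cells, a difference in each cell cannot be told apart from one in the share of cells that express the gene.

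TYMS, which makes thymidylate by taking a carbon from methylene-tetrahydrofolate and is the target of fluorouracil, was higher by a smaller amount. Its bright probe set (202589_at) read 4998, 4870.0 and 4889.9 on arrays labelled PSMA, against 3849.9, 3788 and 3688 on arrays labelled control. The groups did not overlap, and the 1.30-fold difference had a log2 value of 0.38 (SE 0.042, limma adjusted p = 9.5e-05). A second probe set for TYMS (217684_at) lay near the bottom of the scale, at 13.7, 14.5 and 12.4 on arrays labelled PSMA and 11.3, 10.2 and 9.98 on arrays labelled control, and was not tested.

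MTR encodes methionine synthase, which passes the methyl group of methyl-tetrahydrofolate to homocysteine with a vitamin B12 cofactor. Its probe set (203774_at) read 259, 268 and 294 on arrays labelled PSMA, against 164, 170.4 and 139 on arrays labelled control. The lowest array labelled PSMA was well above the highest labelled control, and the difference was 1.74-fold (log2 difference 0.80, SE 0.084, 95% interval 0.60 to 0.99, limma adjusted p = 7.4e-05). Against a minimum fold of 1.5 it was not called (limma treat, adjusted p = 0.21).

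The mitochondrial enzymes among the 9 genes differed less. MTHFD2, the mitochondrial dehydrogenase and cyclohydrolase and a relative of MTHFD1, read 2784, 2825 and 2702 on arrays labelled PSMA (201761_at), against 3275, 3163 and 2999.96 on arrays labelled control. It was called lower by a small amount (log2 difference -0.18, SE 0.049, limma adjusted p = 0.011), the opposite direction to MTHFD1. This contrast does not extend to MTHFD2L, another mitochondrial relative, which was called higher and lay near the filter, as given below. SHMT2, which takes the carbon from serine in mitochondria, had 3 probe sets that all pointed up but were not all called. On 214437_s_at it read 698, 727 and 751 on arrays labelled PSMA and 598, 550.3 and 581 on arrays labelled control (1.26-fold, log2 difference 0.33, limma adjusted p = 0.00065). On its brightest probe set, 214096_s_at, it read 1263, 1179 and 1240.1 on arrays labelled PSMA and 1119.7, 1110.0 and 1169.5 on arrays labelled control. There the groups did not overlap, but the log2 difference of 0.12 missed the threshold (limma adjusted p = 0.065). On the dimmest, 214095_at, the groups overlapped (log2 difference 0.083, 95% interval -0.033 to 0.20, limma adjusted p = 0.19). SHMT2 was therefore called higher on 1 of its 3 probe sets. The mean of its probe sets was also called higher in a separate fit over gene means (log2 difference 0.18, limma adjusted p = 0.0061).

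SHMT1, the cytosolic counterpart of SHMT2, could not be followed by a probe set of its own. The one annotated to SHMT1 alone (217304_at) read 7.85, 8.27 and 9.18 on arrays labelled PSMA and 7.78, 7.11 and 6.55 on arrays labelled control, all near the lowest value in the table (3.76), and was not tested. Another probe set (209980_s_at) is annotated to SHMT1 and to MIR6778, a microRNA gene, and so lies outside the rule for the 15. It read 80.9, 75.9 and 85.0 on arrays labelled PSMA, against 213, 204 and 235 on arrays labelled control, with no overlap and a log2 difference of -1.43 (limma adjusted p = 8.5e-07). The annotation alone does not settle whether that signal came from SHMT1 or MIR6778.

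Of the uptake and retention genes, SLC19A1 was called lower on its brightest probe set, and FPGS and GGH were not called. SLC19A1 encodes the reduced folate carrier, which also takes up methotrexate, and had 4 probe sets with differences that all pointed down. The brightest (211576_s_at) read 281, 254 and 291 on arrays labelled PSMA, against 305, 331 and 326 on arrays labelled control, and was called lower (log2 difference -0.22, SE 0.062, limma adjusted p = 0.014). The next (209777_s_at) read 150.4, 169.7 and 157 on arrays labelled PSMA and 152, 169.99 and 199 on arrays labelled control, with overlapping groups (log2 difference -0.12, 95% interval -0.34 to 0.097, limma adjusted p = 0.30). The other 2 were below the filter, with means of 20.3 ± 1.80 and 34.7 ± 3.94 on arrays labelled PSMA and 23.0 ± 2.01 and 36.9 ± 2.58 on arrays labelled control (SD, n = 3). SLC19A1 was thus called lower on 1 of 2 tested probe sets. The mean of the tested probe sets was also called lower (log2 difference -0.17, limma adjusted p = 0.037).

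FPGS, which adds the glutamate tail, read 144, 129.7 and 140.3 on arrays labelled PSMA (202945_at) and 156, 138 and 137 on arrays labelled control. The groups overlapped, and the log2 difference of -0.059 was not called (95% interval -0.21 to 0.094, limma adjusted p = 0.47). GGH, the lysosomal hydrolase that removes the tail and the member whose reaction is nearest to that of PSMA, read 1242, 1211 and 1289 on arrays labelled PSMA (203560_at) and 1311, 1314 and 1278 on arrays labelled control. The groups overlapped, the log2 difference of -0.061 was not called (95% interval -0.16 to 0.041, limma adjusted p = 0.26), and the interval leaves room for a small change in either direction for both enzymes of the tail.

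**Figure D2:**
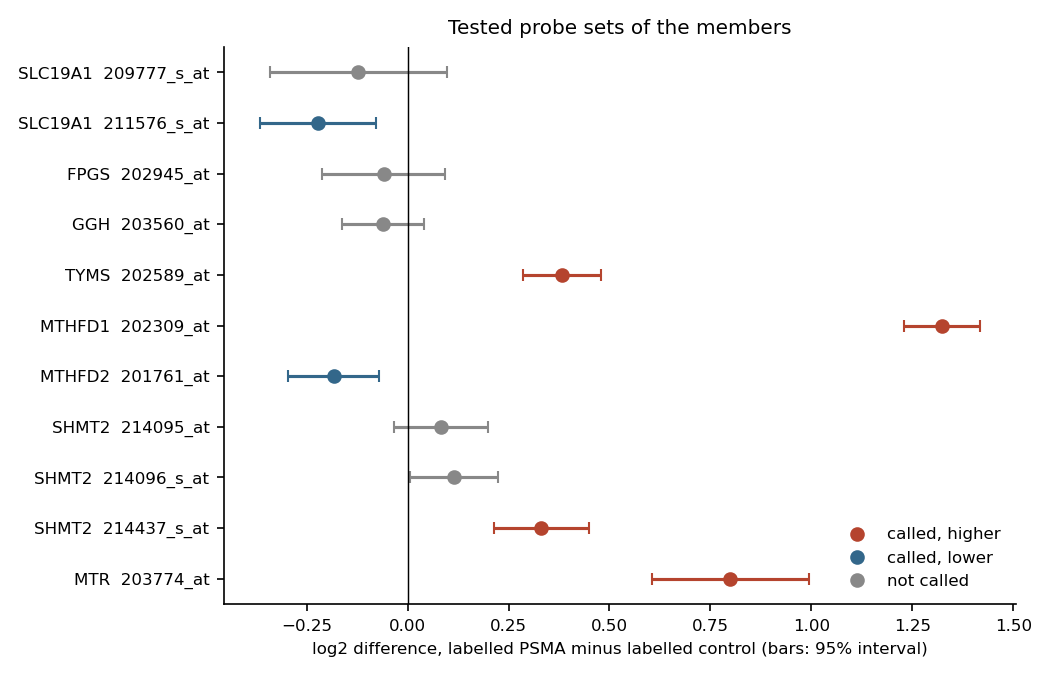
Log2 difference (arrays labelled PSMA minus arrays labelled control) of the 11 tested probe sets, with 95% intervals from limma, n = 3 arrays a group. Red marks probe sets called higher, blue called lower and grey not called, and MTHFD1 at 1.32 and MTR at 0.80 lie farthest from 0.

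In the rest of the pathway calls were seen in both directions. The list held 46 genes of folate uptake and one-carbon metabolism, the 9 included, each taken by its brightest tested probe set. Of these, 28 were tested, 9 were below the filter and 9 had no probe set annotated to their symbol alone. MTHFS was among the last 9, and its shared probe set is given under other observations. By adjusted p, 12 of the 28 were higher, 5 lower and 11 not called, beside 62.4% of all 7035 genes tested by the same rule. The list's median log2 difference was 0.12, and the median over all genes tested was -0.014. Leaving out the 9 members, 9 of 20 were higher, 3 lower and 8 not called. Across all genes tested, the shares were 29.6% higher and 32.8% lower. GLDC and MTHFD2L are among the 9 higher, and their differences are tied to the filter, as given below. With all arrays required above the median, 10 of 26 list genes were called higher and 5 lower, beside 1929 and 2176 of all 6588 genes.

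The other calls fell on several steps. In mitochondria, MTHFD2L, a close relative of MTHFD2, was called higher at 98.0, 79.1 and 77.95 on arrays labelled PSMA, against 54.9, 49.8 and 45.97 on arrays labelled control (log2 difference 0.76, limma adjusted p = 0.00026). It lay near the filter too, with 2 of its arrays labelled control below 52.5, so its difference is tied to that filter. Of the glycine cleavage system, which supplies one-carbon units from glycine, 3 genes were tested and called higher. Of all genes tested, 29.6% were called higher and 62.4% in either direction. AMT was below the filter (21.8 to 27.5). The 3 were the decarboxylase GLDC (0.58 on the log2 scale), the carrier protein GCSH (0.23) and the dehydrogenase DLD (0.13), whose product also serves other dehydrogenase complexes. GLDC stood near the filter, at 72.2, 62.6 and 81.3 on arrays labelled PSMA and 48.05, 47.97 and 47.4 on arrays labelled control. It passed the filter through the arrays labelled PSMA alone, so its difference is tied to that filter. In serine synthesis PSAT1 (0.27) and PSPH (0.31) were called higher, and PHGDH, the first enzyme, was not called (0.0059). The probe sets of PSPH disagreed, since its dimmer one was called lower (-0.20). The mean of its probe sets was not called (0.057, limma adjusted p = 0.44).

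Purine synthesis uses 2 folate-borne carbons, added by GART and ATIC. Of its 6 genes, PFAS (0.55 on the log2 scale) and ADSL (0.27) were called higher and PAICS lower (-0.12, limma adjusted p = 0.048). The second tested probe set of PAICS was not called (-0.015, limma adjusted p = 0.79), nor was the mean of its probe sets (-0.066, limma adjusted p = 0.20). Neither folate-dependent enzyme was called on its brightest probe set, with 0.023 for GART and 0.093 for ATIC. Another 2 GART probe sets, both dimmer, were called in opposite directions, at -0.17 and 0.18. In the methionine cycle AHCY, which clears S-adenosylhomocysteine, was called higher (0.24) beside MTR, while both subunits of methionine adenosyltransferase were called lower, the catalytic MAT2A (-0.31, and -0.33 on its other probe set) and the regulatory MAT2B (-0.18). MTRR, which reactivates methionine synthase, was not called (0.15). In homocysteine transsulphuration, CTH was not called on its brightest probe set (-0.11, limma adjusted p = 0.070). Its dimmer probe set was called lower (-0.18, limma adjusted p = 0.027), as was the mean of its probe sets (-0.15, limma adjusted p = 0.017). Among transporters other than SLC19A1, the mitochondrial carrier SLC25A32 (0.035) and the receptor FOLR1 (0.14) were not called. A second FOLR1 probe set (204437_s_at) lay below the filter, averaging 11.7 on arrays labelled PSMA and 12.8 on arrays labelled control.

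**Figure D3:**
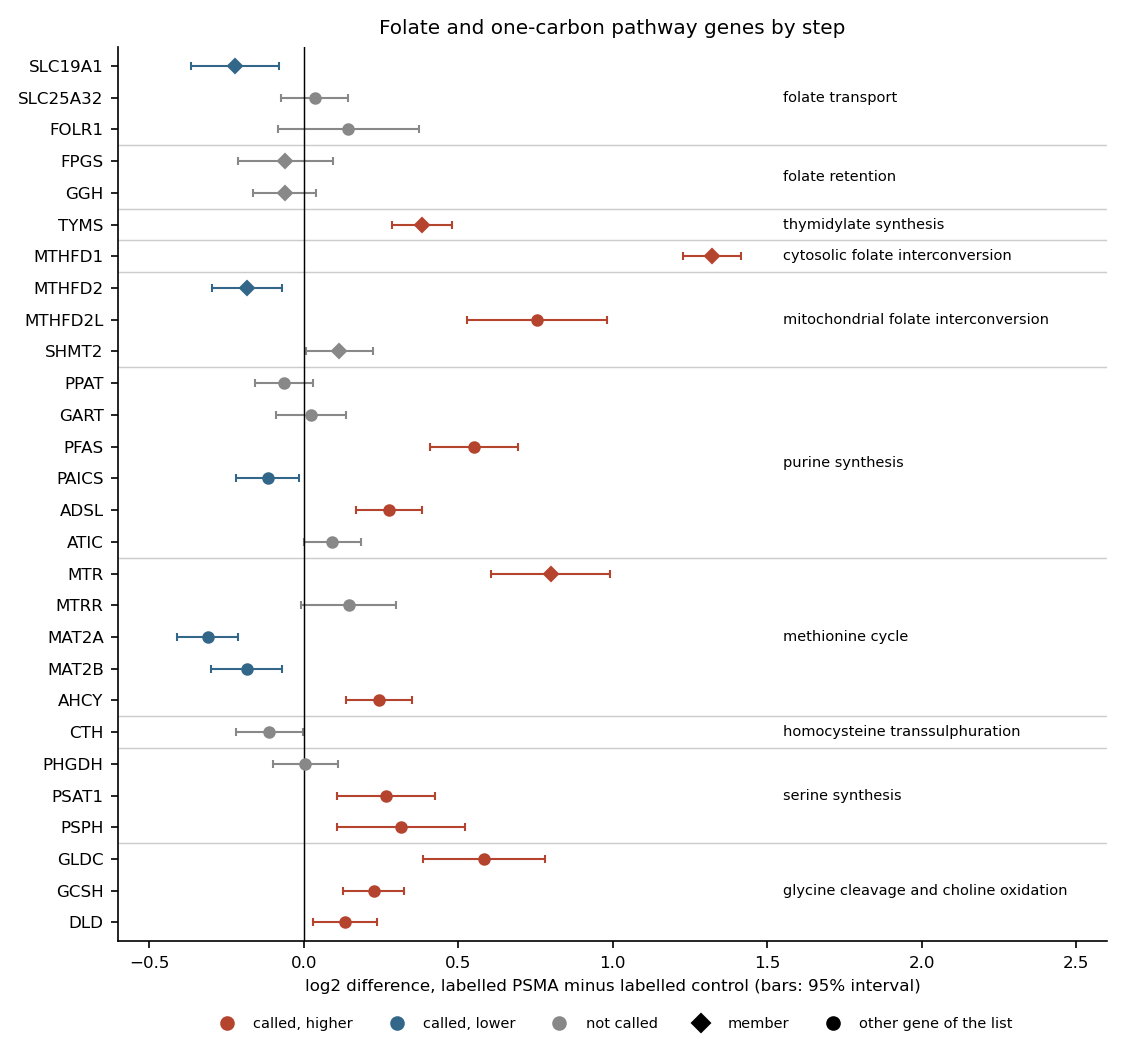
Log2 difference (arrays labelled PSMA minus arrays labelled control) with 95% intervals for the 28 tested genes of the folate and one-carbon list, grouped by step, n = 3 arrays a group. Diamonds are members and circles the other genes, and of the 28, 12 in red were called higher, 5 in blue called lower and 11 in grey not called.

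The members lie on 9 different chromosomes, and their tested neighbours differed widely (coordinates of RefSeq assembly GRCh38.p14, used for the place of genes only). For each, the 7 tested genes before and the 7 after it were taken, or fewer at a chromosome end. MTHFD1 lies on chromosome 14 (64388353 to 64460025). Of its 14 neighbours 11 were called higher and 0 lower, where 29.6% of all 7035 genes were called higher and 32.8% lower (62.4% in all). The other 3 (TMEM30B, HIF1A and RAB15) had differences from -0.021 to 0.035, and the median log2 difference of the 14 was 0.80. The nearest before it was SYNE2, a nuclear envelope gene, at 241, 263 and 238 on arrays labelled PSMA and 122, 121 and 104 on arrays labelled control (log2 difference 1.10, limma adjusted p = 5.7e-06). The nearest after it, the zinc finger gene ZBTB25, differed by 0.98, and its span overlaps that of MTHFD1. The difference of MTHFD1, 1.32, lay below only that of SNAPC1 (1.46) among the 14.

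SHMT1 lies on chromosome 17 (18327873 to 18363550) among genes that went the other way. Of its 14 neighbours 13 were called lower, where 32.8% of all 7035 genes were. The other 1, USP32P2, was not called (-0.024), and the median log2 difference of the 14 was -1.90. ATPAF2 and GID4 exceeded the filter's level on the arrays labelled control alone, so their calls are tied to that filter. Of the 11 neighbours above it on all 6 arrays, 10 were called lower. FLII, an actin-remodelling gene, read 541, 561 and 576 on arrays labelled PSMA, against 2110.1, 2114 and 2112 on arrays labelled control. The probe set that SHMT1 shares with MIR6778 had a log2 difference of -1.43.

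MTR, on chromosome 1 (236795281 to 236903981), was called higher among neighbours of which most were called lower. Of its 14 neighbours 10 were called lower, beside 32.8% of all genes, 1, OPN3, higher (0.30) and 3 not, with a median log2 difference of -0.46. RGS7 and KMO exceeded the filter's level on the arrays labelled control alone, and of the 11 neighbours above it on all 6 arrays 7 were called lower (median -0.44). The nearest before it, HEATR1, which acts in ribosome synthesis, read 664, 603 and 593 on arrays labelled PSMA and 859, 868 and 834 on arrays labelled control (log2 difference -0.46, limma adjusted p = 0.00014). The nearest after it, MT1HL1, was not called (0.0036). MTR, at 0.80, lay above all 14.

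Around the other 6 members the counts were less one-sided, apart from SHMT2, which had 8 neighbours called lower, 1 higher and 5 not called. Over all 7035 genes, 29.6% were called higher and 32.8% lower. Around TYMS, near the end of chromosome 18, 9 neighbours held 2 called higher and 2 lower, and the 5 nearest (USP14, THOC1, YES1, METTL4 and NDC80) were not called, with differences between -0.055 and 0.038. The median among neighbours was 0.040 for MTHFD2, -0.022 for SLC19A1, -0.053 for FPGS and -0.13 for SHMT2. Near FPGS, ENG exceeded the filter's level on the arrays labelled PSMA alone. The 13 FPGS neighbours above it on all 6 arrays had a median of -0.097. GGH had 8 lower and 4 higher among 14, with a median of -0.30, and was itself not called. Near GGH, TOX exceeded the filter's level on the arrays labelled control alone. Of the 12 GGH neighbours above it on all 6 arrays, 6 were called lower and 4 higher (median -0.16).

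**Figure D4:**
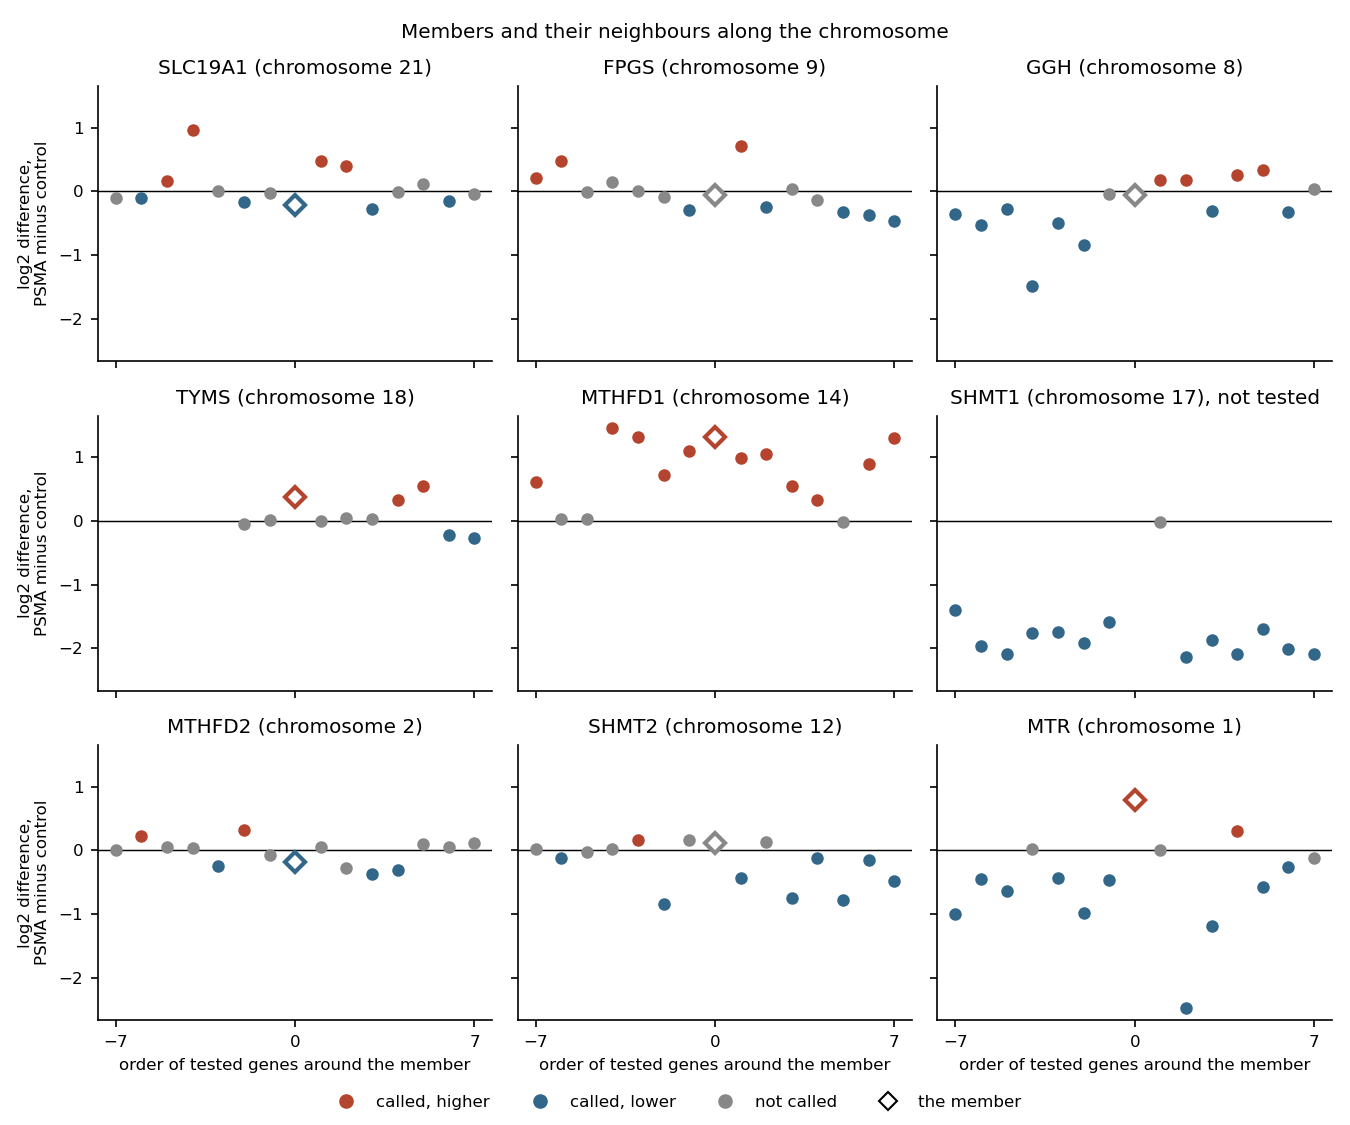
Log2 difference (arrays labelled PSMA minus arrays labelled control) of each member (open diamond at 0) and of up to 7 tested genes on either side, in the order of the RefSeq table, with red called higher, blue called lower and grey not called. Points around MTHFD1 are mostly above 0 (median 0.80), those around SHMT1 nearly all below it (median -1.90), and MTR lies above all 14 of its neighbours.

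Of the members, MTHFD1 and MTR were called with at least a 1.5-fold difference on a probe set of their own. The genes whose 6 values most resembled theirs were found by the Euclidean distance of log2 values centred on each gene's mean. This used 6 arrays and 7035 genes. With 2 groups of arrays such likeness mostly reflects the size of the group difference. Nearest to MTHFD1 were EMP3 (distance 0.079, log2 difference 1.37), CHPT1 (0.097, 1.27) and WASF3 (0.10, 1.40). Nearest to MTR were ZNF217 (0.098, 0.76), HERC5 (0.13, 0.82) and EMP1 (0.13, 0.80). None of these 6 genes lies on the chromosome of its member.

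The sequences at the starts of the 3 members called higher are given, and that of MTHFD2 as the relative of MTHFD1 called the other way. SLC19A1, also called lower, has 4 windows from different starts, which are not printed. Each runs 5′ to 3′ on the gene's strand, from 250 bases before to 50 after a RefSeq start (GRCh38.p14). Capitals mark matches on either strand to the GC box GGGCGG, the CCAAT box CCAAT, the E-box CACGTG or the E2F core TTTCGCG, motifs chosen because they are common in promoters of growth-related genes. The windows were chr14:64388103-64388402 for MTHFD1, chr1:236795031-236795330 for MTR, chr18:657403-657702 for TYMS and chr2:74198365-74198664 for MTHFD2, all on the plus strand.
MTHFD1: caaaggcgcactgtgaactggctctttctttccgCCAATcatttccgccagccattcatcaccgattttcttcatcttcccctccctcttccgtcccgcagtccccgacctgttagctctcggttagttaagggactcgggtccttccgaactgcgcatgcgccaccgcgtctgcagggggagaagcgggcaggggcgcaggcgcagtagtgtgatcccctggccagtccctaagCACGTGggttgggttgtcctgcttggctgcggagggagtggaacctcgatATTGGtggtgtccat
MTR: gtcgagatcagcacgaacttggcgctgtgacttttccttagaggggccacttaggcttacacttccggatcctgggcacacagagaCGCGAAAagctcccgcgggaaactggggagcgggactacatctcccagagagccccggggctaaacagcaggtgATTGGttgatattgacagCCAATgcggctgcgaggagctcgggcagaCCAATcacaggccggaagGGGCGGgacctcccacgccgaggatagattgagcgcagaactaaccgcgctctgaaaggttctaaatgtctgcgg
TYMS: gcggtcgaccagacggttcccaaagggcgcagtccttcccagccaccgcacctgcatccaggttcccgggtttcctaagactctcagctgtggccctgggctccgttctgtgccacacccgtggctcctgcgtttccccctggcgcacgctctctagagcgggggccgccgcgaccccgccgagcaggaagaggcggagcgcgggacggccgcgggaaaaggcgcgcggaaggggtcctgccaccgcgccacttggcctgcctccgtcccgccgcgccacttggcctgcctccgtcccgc
MTHFD2: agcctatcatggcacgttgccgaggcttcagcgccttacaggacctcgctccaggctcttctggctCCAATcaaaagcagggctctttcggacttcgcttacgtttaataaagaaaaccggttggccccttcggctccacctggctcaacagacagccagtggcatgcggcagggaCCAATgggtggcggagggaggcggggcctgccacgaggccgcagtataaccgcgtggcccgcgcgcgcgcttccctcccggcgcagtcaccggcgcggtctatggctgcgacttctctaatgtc

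MTHFD1 had 2 CCAAT matches and 1 E-box match, the latter starting 15 bases before the start. MTR had 3 CCAAT matches, 1 GC box match and 1 E2F core match. MTHFD2 had 2 CCAAT matches, and TYMS had no match to any of the motifs in its window. Of all 35116 RefSeq windows of 300 bases, 34.6% held the CCAAT box, 45% the GC box, 7.26% the E-box and 1.32% the E2F core. A match of letters in these windows is a description and not a binding site.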

How the data were processed

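Gene expression was measured on 6 arrays of PC3 cells. The deposited values are intensities on a linear scale, 1 per probe set and array, made by the authors with GCRMA per the submitters' processing notes; version, genome build and any later step are not given in the sources used here, and the linear scale was read from the values (3.76 to 17455). GCRMA shrinks dim signals towards one another, so differences between them depend on its background step. Array scan dates were not used here, so no batch was tested.

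Intensities were log2-transformed with no pseudocount, control probe sets were dropped (62), and a probe set was kept where 3 arrays or more exceeded the table's median. limma 3.58.1 (lmFit and eBayes, R 4.3.3) was fitted over all of them as PSMA minus control, with two-sided p-values and Benjamini-Hochberg adjustment, and was tested on simulated data. A gene was taken by its brightest single-symbol probe set. Means of a gene's probe sets came from a separate limma fit over the 7035 genes, averaging the log2 values of tested single-symbol probe sets. Their p-values were adjusted over those genes. Annotation was the platform's (19064 probe sets with 1 symbol, 1043 with several, 2108 unnamed here); 19052 were found in the RefSeq table by gene identifier and 0 symbols differed. Promoter windows were RefSeq's (GRCh38.p14); 7 of the 9 genes matched by symbol, all but GGH and SHMT2. Summaries used pandas 2.3.3 with numpy 2.4.6 under Python 3.11.15, and plots matplotlib 3.10.9. Named were the 9 genes, FOLH1, pathway genes that were called (others by value or count), the nearest neighbours of members called at 1.5-fold or more, and their 3 most similar genes; other neighbours, and the motifs, were chosen after values were seen. Proteins were not compared, as no protein sequences were at hand. The members and lists were chosen with earlier results of these data known.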

Additional observations from a re-analysis of the deposited data

How the results depend on the processing

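The called probe sets of the 9 genes kept their direction in runs that altered the values or left out an array. Other filters, variance settings or a minimum fold could not change the direction of these probe sets, as the difference stays the same. Without the minimum fold, their count was 6 or 7 of those tested, that of all probe sets 6078 to 7107, that of all genes 3877 to 4540 and that of the pathway list 15 to 20. These alternatives were other filters on dim values, a floor, a pseudocount of 16, further normalization, other variance settings, other gene summaries and arrays left out. With 1 array left out at a time, the counts were 6 to 7, 6078 to 6822, 3877 to 4355 and 15 to 16. Against a minimum fold of 1.5, the counts were 1, 747, 504 and 1, since that test asks for a larger change, and MTHFD2, TYMS, MTR, SLC19A1 and SHMT2 were no longer called. The SHMT2 probe set that just missed the threshold (214096_s_at) was called with quantile normalization on top (limma adjusted p = 0.034), with trend and robust variance (0.029) and without control replicate 3 (0.042), with 0.029 to 1 over all its alternatives. The difference of FPGS, not called, changed sign without 1 array, lying between -0.092 and 0.0032. Counting probe sets annotated to a further gene as well, which was chosen after seeing the data, gave 7 called of 12 for the 9 genes and 20 of 30 for the list. With all arrays required above the median, no FOLH1 probe set was left to test. No paired analysis was possible because the groups share no replicate numbers. Dim signal limits the second TYMS probe set and the probe set annotated to SHMT1 alone. The brighter SHMT1 probe set was left out of the main counts because of its further annotation.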

Other observations

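The counts by gene leave out probe sets annotated to a pathway gene together with another gene, other than in the alternative that adds them, and 2 of these are given here as values. The one shared by MTHFS, which returns formyl-tetrahydrofolate to the cycle, and the read-through gene ST20-MTHFS was called lower. It read 207, 209 and 223 on arrays labelled PSMA and 235, 241 and 268 on arrays labelled control. Its log2 difference was -0.22 (limma adjusted p = 0.014). One shared by PHGDH, MZT2A and MZT2B was called higher (log2 difference 0.21, limma adjusted p = 0.0054). It read 1530.3, 1475.8 and 1506 on arrays labelled PSMA and 1266, 1260.3 and 1369 on arrays labelled control. The probe set of PHGDH alone overlapped between the groups.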
